A study of Mus musculus with 2 samples.

Results

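The Fc receptor family was followed here as 8 genes of the 32285 in the count files: *Fcgr1*, *Fcgr3* and *Fcgr4*, which encode activating receptors for IgG; *Fcer1g*, which encodes the FcR gamma chain they signal through; *Fcgr2b*, which encodes the inhibitory IgG receptor; and *Fcer2a*, *Fcmr* and *Fcrl5*, which encode receptors of B cells. The genes were listed by name, with earlier results of these data known, and all 8 were found by identifier. The counts came from single-cell RNA sequencing of cells described as splenocytes of C57BL/6 mice infected with LCMV-cl13, the chronic strain of lymphocytic choriomeningitis virus, and taken on day 8 of infection. PEP-WT mice carried the wild type *Ptpn22* gene and PEP-619WW mice the pro autoimmune allele in both copies, in which the protein PEP has tryptophan in place of arginine at residue 619. Cells of 4 to 5 mice of matched age and sex were pooled per genotype and sorted as live CD45+ cells, so that each library is 1 pool. The sample labels name liver, the Jurkat cell line and tumor infiltrating cells, whereas the protocol and the design text describe splenocytes. At most 1 of 5 hepatocyte genes had a UMI in any of the cell gates used here. Each genotype was deposited as 2 runs of 1 library each, and since no source used here says how they relate, the runs were kept apart and not taken as replicates. The cell numbers and median genes per cell stated in the methods are those of run 2, and the origin of run 1 is not described there.

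Receptors for the constant (Fc) part of antibodies let cells of the innate immune system respond to targets that antibody has coated. The activating IgG receptors pair with the FcR gamma chain, whose ITAM motif recruits the kinase Syk, while FcγRIIB carries an inhibitory motif that recruits the phosphatase SHIP-1 and is the IgG receptor of B cells. CD23 (*Fcer2a*) binds IgE and is found on follicular B cells, the product of *Fcmr* binds IgM, and the product of *Fcrl5* is known from marginal zone B cells and B-1 cells. PEP, the product of *Ptpn22*, is a phosphatase of Src family and Syk family kinase pathways.

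The gene models placed 5 of the members on chromosome 1 (GRCm38): *Fcgr2b* at chr1:170958617-170976547, *Fcgr4* at chr1:171018920-171029761, *Fcgr3* at chr1:171051174-171064935, *Fcer1g* at chr1:171229572-171234365, and *Fcmr* at chr1:130865669-130880791. *Fcgr1* lies at chr3:96282909-96293969, *Fcrl5* at chr3:87435773-87500678 and *Fcer2a* at chr8:3681737-3694175. The 250 bases before the RefSeq start sites of the 4 IgG receptors are shown because the activating and inhibitory comparisons below turn on these genes. *Fcgr3* has 2 such sites, and the window of 1 of them is shown. Capitals mark a PU.1 box (CTTCCTC), a STAT site (TTCNNNGAA) and an interferon-stimulated response element (GAAANNGAAA), each searched on both strands.
Fcgr1 promoter (chr3:96293970-96294219, minus strand): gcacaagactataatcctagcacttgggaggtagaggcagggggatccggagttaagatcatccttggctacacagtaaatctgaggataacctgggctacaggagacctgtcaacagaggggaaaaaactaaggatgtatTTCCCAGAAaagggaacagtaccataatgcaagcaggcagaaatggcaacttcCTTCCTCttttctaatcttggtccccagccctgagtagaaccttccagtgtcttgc
Fcgr3 promoter (chr1:171059404-171059653, minus strand): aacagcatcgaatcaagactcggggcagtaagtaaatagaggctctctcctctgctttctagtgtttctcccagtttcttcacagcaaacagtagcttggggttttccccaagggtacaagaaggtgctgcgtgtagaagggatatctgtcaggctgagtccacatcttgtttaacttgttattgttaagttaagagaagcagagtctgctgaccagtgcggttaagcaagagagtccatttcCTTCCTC
Fcgr4 promoter (chr1:171018676-171018925, plus strand): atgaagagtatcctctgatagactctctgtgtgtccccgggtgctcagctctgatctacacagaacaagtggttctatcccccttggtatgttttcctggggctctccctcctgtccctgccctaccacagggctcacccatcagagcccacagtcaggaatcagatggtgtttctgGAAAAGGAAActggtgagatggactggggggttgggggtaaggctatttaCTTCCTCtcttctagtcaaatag
Fcgr2b promoter (chr1:170976072-170976321, minus strand): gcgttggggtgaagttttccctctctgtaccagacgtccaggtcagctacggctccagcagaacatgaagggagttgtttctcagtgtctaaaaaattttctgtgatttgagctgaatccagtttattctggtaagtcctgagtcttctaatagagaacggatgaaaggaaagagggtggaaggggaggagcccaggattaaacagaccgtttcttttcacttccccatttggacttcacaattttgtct
The PU.1 box was found in *Fcgr1*, *Fcgr3* and *Fcgr4*, and not in the windows of *Fcgr2b*, *Fcer1g*, which was also high in myeloid barcodes, or *Fcer2a*, *Fcmr* and *Fcrl5*. Of 32851 mouse promoter windows of this length 10.6% held it. The STAT site was found in *Fcgr1* and in no other member (7.02% of all windows), and the interferon-stimulated response element in *Fcgr4* and in no other member (2.98%). A match is a string of letters and not a measured binding site. The RefSeq start sites of *Fcgr2b* and *Fcgr3* lie inside longer gene models of the annotation.

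Run 1 comprised 14821 barcodes for PEP-WT and 8576 for PEP-619WW, and run 2 comprised 9539 and 11029, with 55504449 to 77916082 UMIs each and medians of 2832 to 4837 UMIs per barcode. Cell classes were set by gates: B cells by *Cd79a* and *Ms4a1*, plasma cells by at least 5 UMIs of *Mzb1*, monocytes by at least 5 UMIs of *Lyz2* and none of *C1qa*, C1q macrophages by at least 5 UMIs of *C1qa* and *C1qb*, neutrophils by at least 20 UMIs of *S100a8* and *S100a9*, and NK cells by *Ncr1* without *Cd3e*. The gates overlapped in run 1, where 56.5% (PEP-WT) and 71.1% (PEP-619WW) of the monocyte barcodes also met another gate, so values for barcodes that met a single gate are given beside many results. The 8 neutrophil markers summed to 9174 and 18945 CPM (UMIs per 1000000 UMIs of the class) in the monocyte gate of run 1 against 8333 and 7076 CPM for the 6 monocyte markers. In single-gate monocytes the neutrophil markers summed to 129 and 154 CPM against 11432 and 10360 CPM for the monocyte markers. Run 2 was unlike run 1: the PEP-WT library held 2 B and 2 NK barcodes and 61.2% C1q macrophages, against 17.8% in PEP-619WW, and 256 and 27 of its barcodes carried at least 3 of 6 melanocyte genes, which no barcode did in run 1. With such genes and so few lymphocytes in PEP-WT, whether the run 2 libraries hold infected spleen could not be settled from the data, and their values are given as those of the labelled libraries. Pairs of libraries shared 19 to 49 barcode sequences.

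In run 1 the members fell into a myeloid group and a B cell group. *Fcgr1*, *Fcgr3*, *Fcgr4* and *Fcer1g* were high in monocytes, C1q macrophages and neutrophils, *Fcer2a*, *Fcmr* and *Fcrl5* in B cells, and *Fcgr2b* was measured in both. Levels are given in CPM of the class total with exact Poisson 95% intervals. These, like all intervals below, cover counting error only, since 1 pooled library per genotype gives no error between animals and allows no test. The libraries count 1 tag near the 3′ end per molecule, so levels of different genes are not divided by length.

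**Figure D1:**
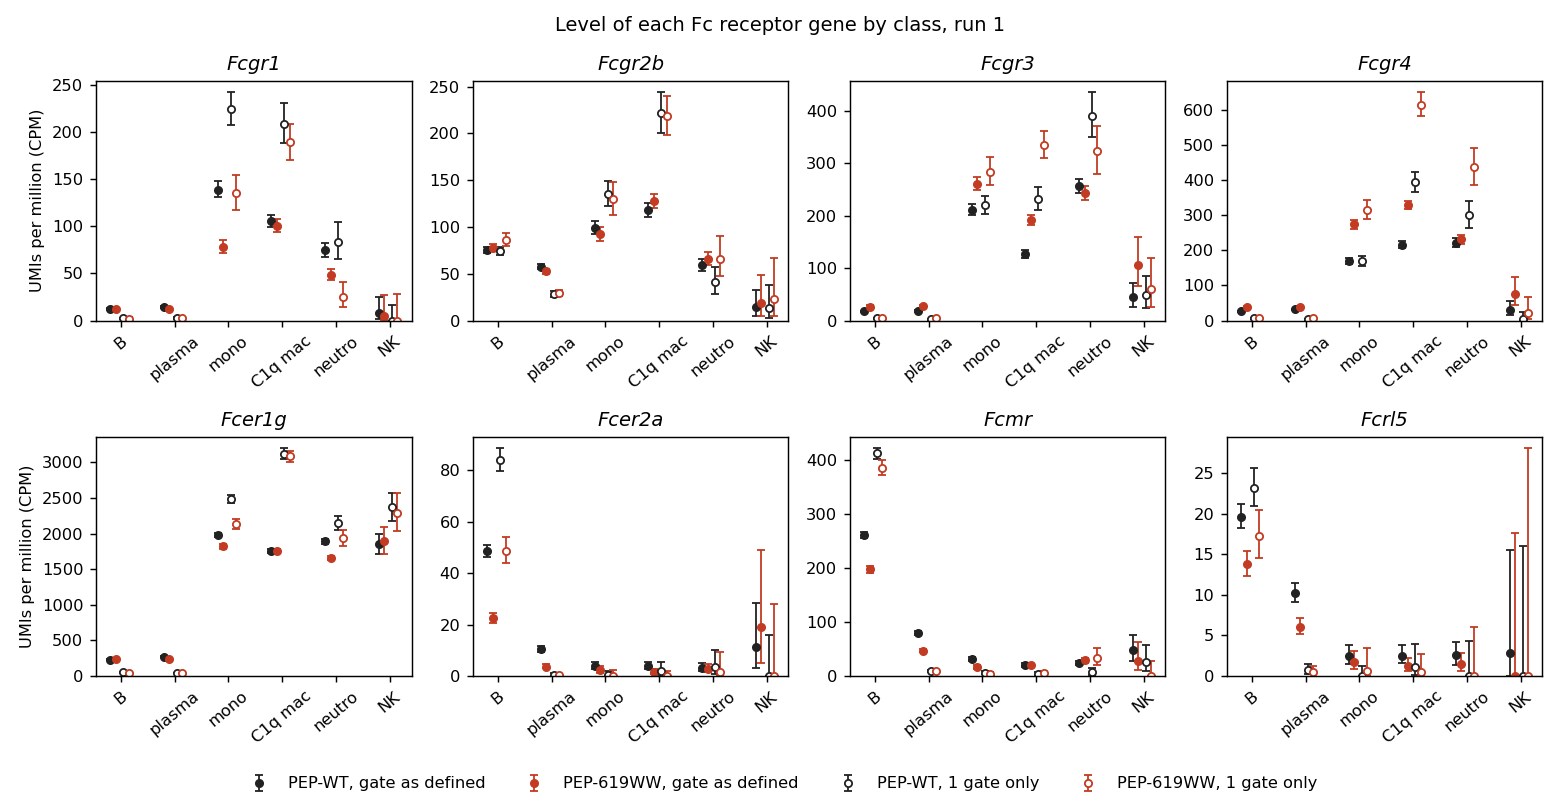
Level of each of the 8 members in run 1, in CPM on linear axes that differ between panels, for the 6 cell classes. Black is PEP-WT and red PEP-619WW, filled points are the gates as defined and open points single-gate barcodes, and bars are exact Poisson 95% intervals. *Fcgr1*, *Fcgr3*, *Fcgr4* and *Fcer1g* are near 0 in single-gate B and plasma barcodes, while *Fcmr* and *Fcer2a* are highest in single-gate B barcodes.

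*Fcer1g* was the most abundant member in every myeloid class and in NK cells, and was within the fold between genotypes in each of them. In run 1 it stood at 1982 CPM (PEP-WT) and 1822 CPM (PEP-619WW) in monocytes, 1756 and 1751 CPM in C1q macrophages, 1894 and 1658 CPM in neutrophils and 1852 and 1899 CPM in NK cells. The ratios of PEP-619WW to PEP-WT ranged from 0.875 to 1.03 over these 4 classes. B and plasma barcodes held 229 to 273 CPM, and single-gate B barcodes 52.5 and 44.0 CPM, below the 96.0 and 82.1 CPM of T cells. T barcodes serve here as a comparison for free RNA. Whether part of their level is their own RNA or comes from doublets was not tested. NK cells use the gamma chain with FcγRIII (CD16), and *Fcgr3* was the activating receptor with most UMIs there, 16 (44.6 CPM, 25.5 to 72.5) in 77 PEP-WT and 22 (105 CPM, 66.0 to 159) in 37 PEP-619WW barcodes. These NK counts are under the minimum of 50 UMIs set for a comparison, and in single-gate barcodes they were 11 (47.9 CPM) and 8 (60.9 CPM). In run 2 the PEP-619WW NK barcodes numbered 466 and gave 109 CPM of *Fcgr3*, and 58.5 CPM in single-gate barcodes.

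*Fcgr1*, the high affinity IgG receptor CD64, was lower in PEP-619WW monocytes and neutrophils of run 1, and not in C1q macrophages. Monocytes held 139 CPM (131 to 148, 1092 UMIs in 1069 barcodes) in PEP-WT and 78.2 CPM (71.4 to 85.4, 492 UMIs in 838 barcodes) in PEP-619WW, a ratio of 0.562 (0.504 to 0.626). Neutrophils held 74.7 and 48.2 CPM (ratio 0.645, 0.551 to 0.755). C1q macrophages held 105 and 100.4 CPM (0.952, 0.867 to 1.05), an interval that spans equal levels. Over all genes with at least 50 UMIs, 11.6% of 9817 were past 1.5-fold in either direction in monocytes, 13.4% in neutrophils and 9.50% in C1q macrophages of run 1. In single-gate barcodes the monocyte ratio was 0.602 (224 against 135 CPM) and the neutrophil ratio 0.298 (83.3 against 24.8 CPM, from 71 and 15 UMIs). The neutrophil markers differed between these neutrophils, at 12174 CPM in PEP-WT and 29363 CPM in PEP-619WW (16091.5 and 26766.5 CPM by the gate as defined). Their part in the ratio was not tested. After thinning every barcode to 1000 UMIs, 13.7% of PEP-WT and 6.23% of PEP-619WW monocytes kept a *Fcgr1* UMI, against 45.6% and 26.3% before, and 0.375% and 0.316% of thinned T cells (median depths 3834 and 6260 UMIs) did.

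*Fcgr4*, the mouse FcγRIV, went the other way. It was higher in PEP-619WW in monocytes, at 169 CPM (160.0 to 178) against 275 CPM (262 to 288), a ratio of 1.63 (1.51 to 1.75), and in C1q macrophages, at 217 CPM against 329 CPM (1.52, 1.43 to 1.61). In single-gate barcodes these ratios were 1.87 and 1.56. The C1q macrophage gate of run 1 also held 5415 and 4671 CPM of B, 4625 and 4772 CPM of plasma and 2011 and 386 CPM of erythroid markers (8083 and 6987, 232 and 376, and 4555 and 141 CPM in single-gate barcodes), against 1332 and 1450 CPM of the 9 C1q macrophage markers. The B markers include *Cd74*, and their sum is not a measure of B cells alone. In run 2 PEP-WT, with 2 B barcodes, they summed to 3677 CPM in monocytes. The part of all these markers in the result was not tested. Neutrophils were at 222 and 231 CPM by the gate (1.04, 0.964 to 1.13), and at 300.2 and 437 CPM (1.45, 1.22 to 1.73) in single-gate barcodes. *Fcgr3*, which encodes FcγRIII, was past 1.5-fold in C1q macrophages, at 126 CPM (119 to 134) in PEP-WT and 192 CPM (182 to 202) in PEP-619WW (1.52, 1.41 to 1.64), with 1.45 in single-gate barcodes. It stood at 211 and 261 CPM in monocytes (1.23) and at 256 and 243 CPM in neutrophils (0.952). Of the 3 activating receptors in run 1, then, *Fcgr1* was lower and *Fcgr4* higher in PEP-619WW monocytes.

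In the B gate *Fcgr3* was past the fold, at 17.6 and 26.7 CPM (1.52), while *Fcgr4* in B barcodes (1.45) and *Fcgr3* (1.47) and *Fcgr4* (1.25) in plasma barcodes were not. Between 88.5% and 94.4% of the *Fcgr1*, *Fcgr3*, *Fcgr4* and *Fcer1g* UMIs of B barcodes lay in barcodes of several gates. In single-gate B barcodes *Fcgr3* was at 4.39 and 5.21 CPM (1.19, 0.785 to 1.77), below the T cell level in PEP-WT and beside it in PEP-619WW. In single-gate plasma barcodes *Fcgr3* was at 2.36 and 5.46 CPM (2.32, 1.40 to 3.97, from 22 and 60 UMIs) and *Fcgr4* at 3.75 and 6.1 CPM (1.63, 1.07 to 2.52, from 35 and 67 UMIs). T cells held 6.68 and 5.15 CPM of *Fcgr3* and 9.05 and 6.2 CPM of *Fcgr4*, so in CPM these plasma levels were near or below those of T barcodes. Plasma barcodes were deeper, with medians by the gate as defined of 9899 and 11400 UMIs against 3834 and 6260 UMIs in T barcodes. The UMIs of these genes per barcode were not compared. The *Fcgr3* and *Fcgr2b* transcripts share 228 stretches of 32 bases, 14.0% and 6.27% of those of each gene, and 4 and 73 of them in the last 500 bases of their transcripts, and no other pair of members shares any.

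**Figure D2:**
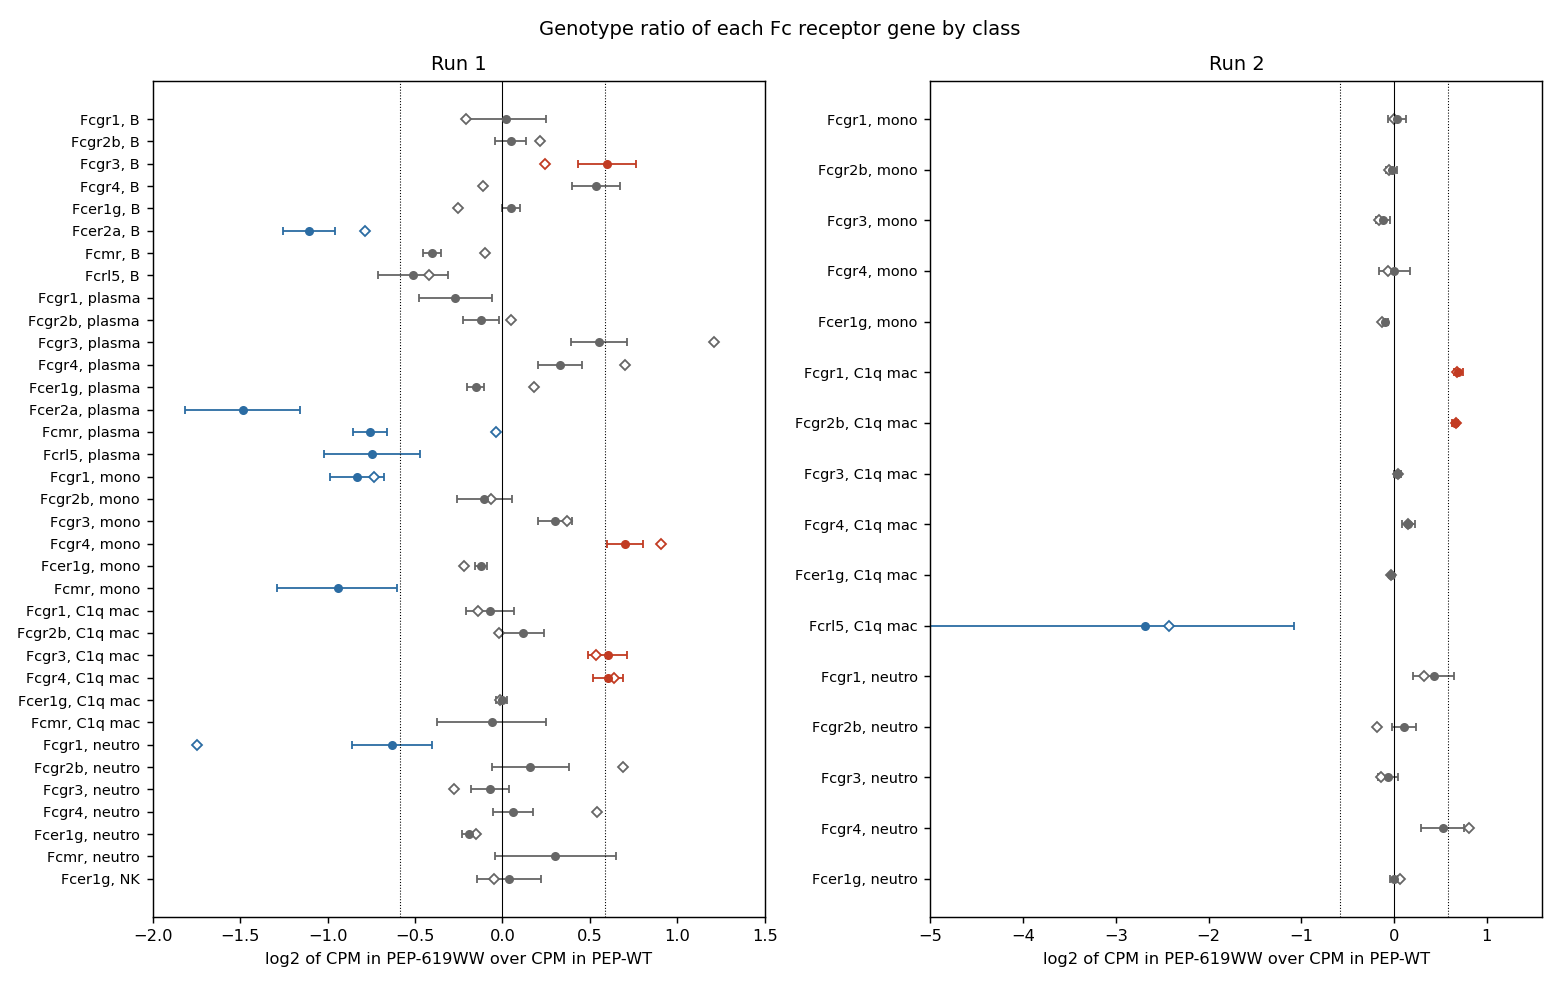
Ratio of PEP-619WW to PEP-WT for each member and class, as log2, in run 1 and run 2. Filled points are the gates as defined, open diamonds single-gate barcodes, bars exact 95% intervals for counting error, and dotted lines mark 1.5-fold. Red and blue mark pairs past it by the gate as defined, and the interval of *Fcrl5* in run 2 runs off the axis. *Fcgr1* lies left of 0 in run 1 monocytes and neutrophils and right of 0 in run 2 C1q macrophages, and the pair with no UMI in PEP-WT (*Fcmr*, monocytes, run 2) is not drawn.

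*Fcgr2b*, the inhibitory receptor, was within 1.12-fold between genotypes in the 5 classes of run 1 that could be compared. It stood at 99.3 and 92.5 CPM in monocytes (0.931, 0.835 to 1.04), 118 and 128 CPM in C1q macrophages (1.08, 0.993 to 1.18), 58.9 and 65.7 CPM in neutrophils (1.12, 0.958 to 1.30), 75.3 and 77.8 CPM in B cells (1.03, 0.972 to 1.10) and 57.2 and 52.6 CPM in plasma cells (0.918, 0.856 to 0.985). In single-gate barcodes its level in B cells hardly moved (74.4 and 86.3 CPM), while plasma cells gave 28.3 and 29.3 CPM, C1q macrophages 221 and 219 CPM and neutrophils 41.0 and 66.1 CPM (1.61, 0.998 to 2.61). Among single-gate plasma cells grouped by the heavy chain with most UMIs, *Fcgr2b* ranged from 26.5 to 41.4 CPM. Plasma cells thus kept *Fcgr2b* above the 7.47 and 9.77 CPM of T cells.

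The ratio of activating (*Fcgr1*, *Fcgr3* and *Fcgr4* together) to inhibitory (*Fcgr2b*) UMIs needs no scaling, because both are counted in the same barcodes. In run 1 monocytes it was 5.23 (4.84 to 5.65) in PEP-WT and 6.63 (6.08 to 7.25) in PEP-619WW, a change of 1.27-fold (1.13 to 1.43), and in C1q macrophages 3.80 and 4.86 (1.28-fold, 1.16 to 1.41). In neutrophils it was 9.37 and 7.96 (0.849-fold, 0.722 to 0.998), so the direction differed between the myeloid classes. In single-gate barcodes the monocyte ratios were 4.52 and 5.67, those of C1q macrophages 3.77 and 5.21, and those of neutrophils 18.9 and 11.8, the last resting on 35 and 40 *Fcgr2b* UMIs. B cells had more *Fcgr2b* than activating UMIs, with ratios of 0.176 and 0.152 in single-gate barcodes. The make-up of the activating UMIs differed more than their sum. *Fcgr1* made up 26.8% of them in PEP-WT and 12.7% in PEP-619WW monocytes, *Fcgr3* 40.7% and 42.5%, and *Fcgr4* 32.5% and 44.8%.

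**Figure D3:**
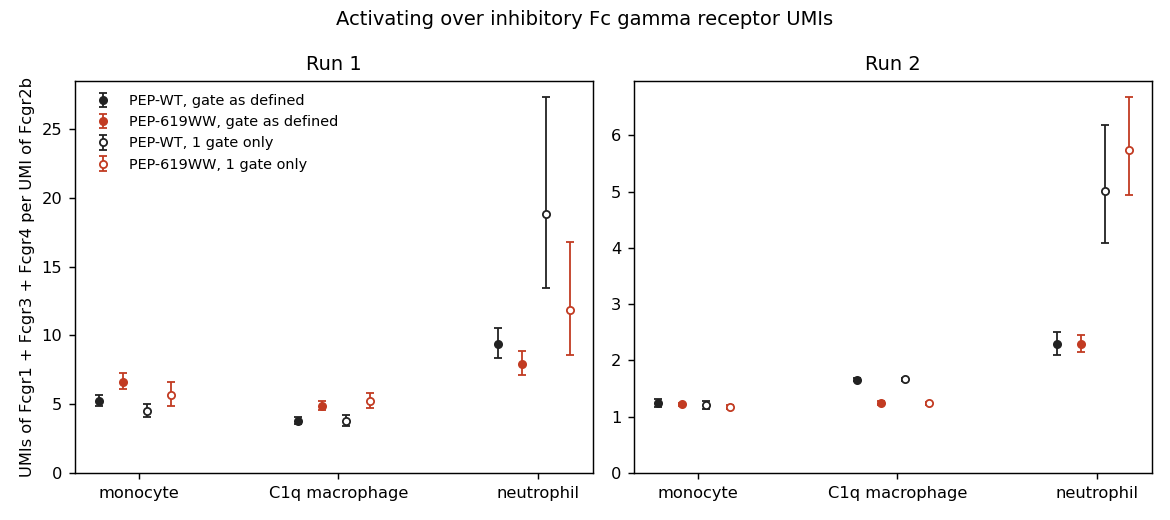
UMIs of *Fcgr1*, *Fcgr3* and *Fcgr4* together per UMI of *Fcgr2b* in the 3 myeloid classes, by genotype (black PEP-WT, red PEP-619WW) and run, with exact 95% intervals. Filled points are the gates as defined and open points single-gate barcodes. In run 1 the ratio is higher in PEP-619WW monocytes and C1q macrophages, and in run 2 it is lower in PEP-619WW C1q macrophages.

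Interferon-stimulated genes were set beside the receptors in monocytes by summing *Isg15*, *Ifit1*, *Ifit3*, *Rsad2*, *Oasl2*, *Irf7* and *Bst2* in each barcode. The median sum in run 1 was 3349 CPM in PEP-WT and 1266 CPM in PEP-619WW, and in run 2 267 and 497 CPM. Barcodes of the upper tercile of the sum in each library held more *Fcgr1* than those of the lower tercile, by 2.48-fold (PEP-WT) and 2.37-fold (PEP-619WW) in run 1 and by 2.41-fold and 3.07-fold in run 2. In single-gate barcodes of run 1 these were 2.85-fold and 3.96-fold. For *Fcgr4* the folds by the gates as defined were 3.81, 2.14, 2.30 and 3.47, the first at 2.19 in single-gate barcodes. *Fcgr2b* had folds of 1.34 and 1.64 in run 1 (1.85 and 2.63 in single-gate barcodes) and of 0.753 and 0.882 in run 2. *Fcgr1* and *Fcgr4* were therefore higher in the upper tercile in all 4 libraries, by at least 2.14-fold. *Fcer1g* was also higher there, by 1.34 to 2.07-fold. In run 2 PEP-WT the lower tercile ended at 0 CPM of the sum, so its barcodes held no UMI of the summed genes. The terciles differed in depth, with medians in the lower and upper tercile of 7448 and 3279 UMIs (PEP-WT) and 5381 and 4368 UMIs (PEP-619WW) in run 1, and of 2072 and 3869 and of 5035 and 5100 UMIs in run 2.

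Within the terciles of each library the genotypes were set side by side for run 1. In the lower tercile *Fcgr1* stood at 85.7 and 48.8 CPM (0.570, 0.458 to 0.704), and in the upper tercile at 212 and 116 CPM (0.544, 0.451 to 0.654). The terciles do not hold barcodes of like interferon level: the lower one ended at 2366 CPM in PEP-WT and 847 CPM in PEP-619WW, and the upper one began at 4592 and 1816 CPM. The upper tercile of PEP-619WW (116 CPM of *Fcgr1*) was above the lower tercile of PEP-WT (85.7 CPM). *Fcgr4* was at 84.7 and 173 CPM in the lower tercile (2.05, 1.77 to 2.37) and at 322 and 372 CPM in the upper tercile (1.15, 1.02 to 1.30), where single-gate barcodes gave 210.1 and 448 CPM (2.13, 1.69 to 2.71). Monocyte barcodes outside the neutrophil gate gave 179 and 107 CPM of *Fcgr1* (0.595, 0.525 to 0.673) and 147 and 307 CPM of *Fcgr4* (2.08, 1.89 to 2.29). Those inside it, which were 41.5% of all monocytes in the first genotype and 55.4% in the second, gave 68.9 and 45.4 CPM of *Fcgr1* (0.660) and 207 and 238 CPM of *Fcgr4* (1.15). The direction of both genes was thus the same inside and outside the neutrophil gate.

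**Figure D4:**
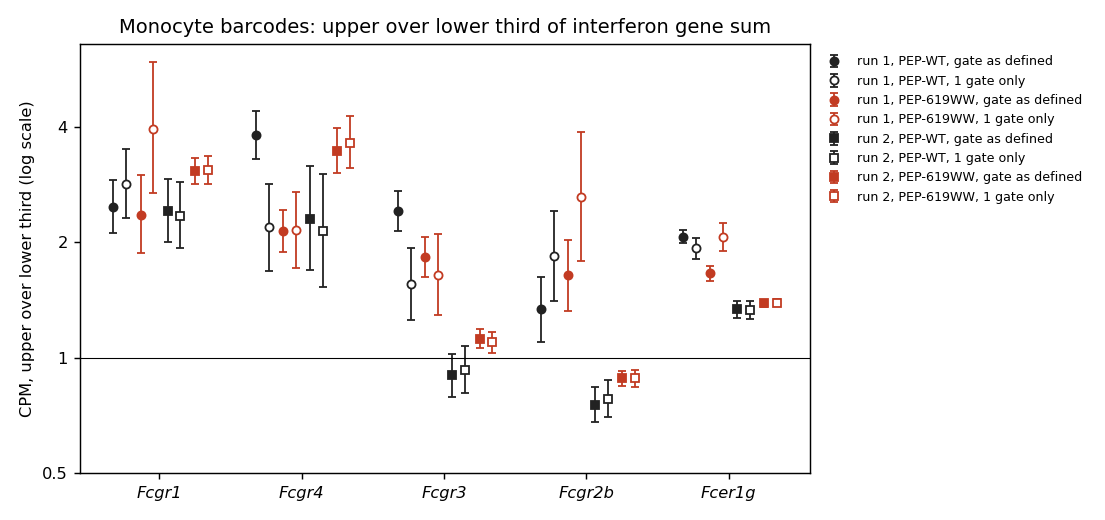
Ratio of the upper to the lower tercile of monocyte barcodes by the sum of 7 interferon-stimulated genes, for the IgG receptors and *Fcer1g*. Ratios of CPM are on a log axis, for both genotypes and runs, with exact 95% intervals for counting error. Filled points are the gates as defined and open points single-gate barcodes, and the line marks equal levels. By the gates as defined, *Fcgr1* and *Fcgr4* lie above the line in each of the 4 libraries, and *Fcgr2b* lies below it in run 2.

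Neutrophils of run 1 were parted by the granule genes *Camp*, *Ngp* and *Ltf*, which mark immature cells. At least 10 UMIs of these were found in 20.5% of wild type and 34.6% of mutant neutrophil barcodes. Such barcodes held less *Fcgr1* than the rest, at 25.5 against 90.4 CPM (0.282, 0.192 to 0.401) in PEP-WT and 13.6 against 77.3 CPM (0.176, 0.119 to 0.253) in PEP-619WW, and less *Fcgr4* (0.657 and 0.504). Among barcodes under 10 UMIs the *Fcgr1* ratio of PEP-619WW to PEP-WT was 0.855 (0.723 to 1.01), against 0.645 over the whole gate. In single-gate barcodes under 10 UMIs the ratio was 0.340, from 70 and 14 UMIs, against 0.298 over all single-gate neutrophils. The part of the granule gene barcodes in the result was not tested.

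C1q macrophages of run 1 were parted by *Vcam1*, found on red pulp macrophages. *Fcgr4* was higher in PEP-619WW both without *Vcam1*, at 204 and 399.8 CPM (1.96, 1.78 to 2.15), and with it, at 224 and 281 CPM (1.26, 1.16 to 1.36). *Fcgr3* was at 152 and 226 CPM (1.48) without it and at 111 and 169 CPM (1.52) with it. Both receptors thus kept their direction in either set of barcodes, and *Fcgr1* was within 0.926 to 0.965 in them. The barcodes with *Vcam1* were deeper than those without, at 14149.5 against 7869 UMIs at the median in PEP-WT.

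In B cells of run 1 *Fcer2a* was the member that differed most. It stood at 48.6 CPM (46.3 to 51.0, 1729 UMIs in 6937 barcodes) in PEP-WT and 22.6 CPM (20.6 to 24.7, 486 UMIs in 3144 barcodes) in PEP-619WW, a ratio of 0.465 (0.419 to 0.514), and in single-gate barcodes at 84.2 and 48.8 CPM (0.580, 0.516 to 0.650). The share of B barcodes with a UMI was 17.8% and 11%, and 6.81% and 3.90% after thinning, against 0.188% and 0.105% of thinned T cells. *Fcmr* was at 261 and 198 CPM (0.757), but at 412 and 385 CPM (0.934, 0.894 to 0.975) in single-gate barcodes. *Fcrl5* was at 19.6 and 13.8 CPM (0.702), and at 23.2 and 17.3 CPM (0.747, 0.608 to 0.912) in single-gate barcodes. In the B class 9.47% of 11882 genes were past 1.5-fold. The B gate of PEP-WT also held more hemoglobin, with the 6 erythroid markers summing to 3277 CPM against 466 CPM, and without immunoglobulin and hemoglobin in the totals the count of members past the fold in run 1 was 12 in place of 11.

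The *Fcer2a* ratio was not the same in all B barcodes. In single-gate B barcodes with no UMI of *Cr2*, the complement receptor that marginal zone B cells carry at high levels, *Fcer2a* was at 82.3 and 44.8 CPM (0.544, 0.473 to 0.625). In those with at least 2 UMIs of *Cr2* it was at 84.1 and 92.7 CPM (1.10, 0.758 to 1.56), an interval that does not reach the first ratio, though the difference between them was not tested. In barcodes with *Ighd*, the IgD chain of mature naive B cells, it was at 94.1 and 51.7 CPM (0.549, 0.485 to 0.620), and in those without at 44.6 and 34.2 CPM (0.768, 0.533 to 1.09). *Cr2* barcodes of at least 2 UMIs made up 14.2% (PEP-WT) and 4.01% (PEP-619WW) of the single-gate B barcodes. *Fcrl5* followed *Cr2*: in PEP-WT it was at 14.8 CPM without *Cr2* and 46.8 CPM with at least 2 UMIs (3.15-fold, 2.49 to 3.99), and in PEP-619WW at 16.3 and 32.6 CPM (2.00-fold, 1.03 to 3.58). Without *Cr2* the *Fcrl5* ratio between genotypes was 1.10 (0.844 to 1.42), against 0.747 over all single-gate B barcodes. With at least 2 UMIs of *Cr2* the *Fcrl5* level was lower in PEP-619WW, at 46.8 and 32.6 CPM, from 759 and 88 barcodes. The part of the smaller share of *Cr2* barcodes in PEP-619WW in the *Fcrl5* ratio was not tested. *Fcmr* was higher with *Ighd* than without, by 1.65-fold and 1.64-fold.

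**Figure D5:**
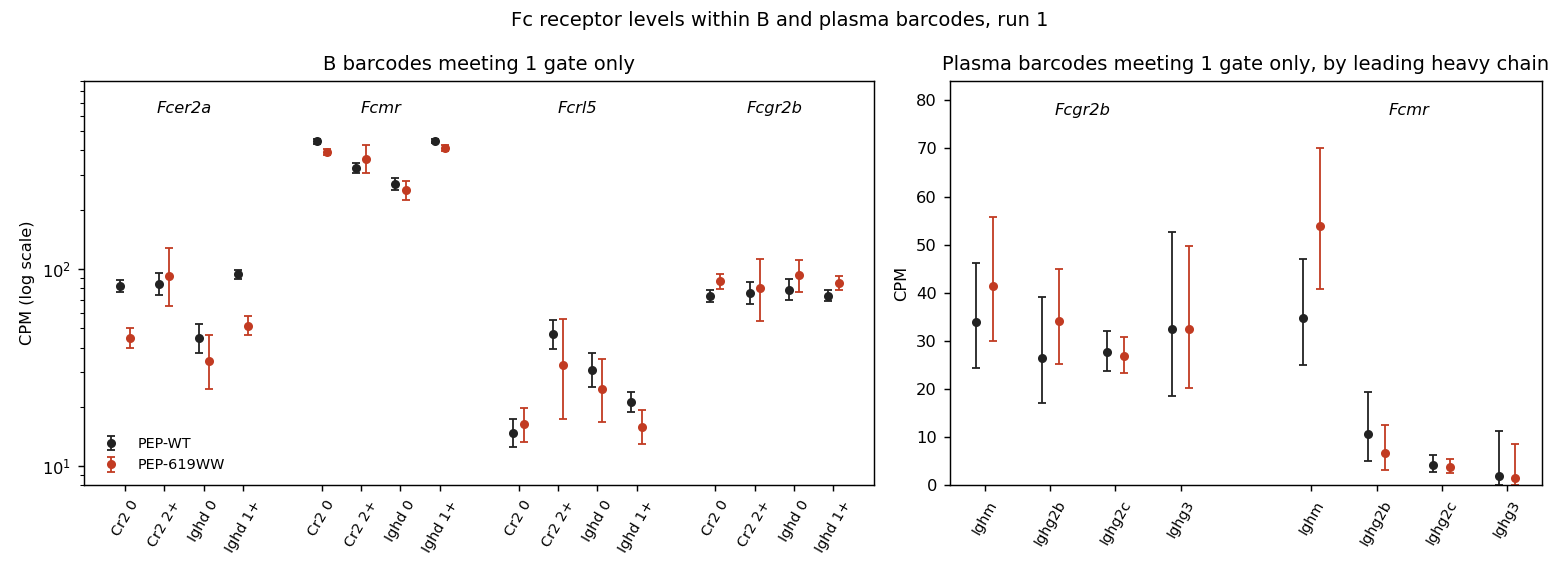
Left, *Fcer2a*, *Fcmr*, *Fcrl5* and *Fcgr2b* in single-gate B barcodes of run 1 parted by UMIs of *Cr2* and *Ighd*, in CPM on a log axis. Right, *Fcgr2b* and *Fcmr* in single-gate plasma barcodes by leading heavy chain, in CPM, with black for PEP-WT, red for PEP-619WW and exact Poisson 95% intervals. *Fcer2a* of PEP-619WW lies below PEP-WT without *Cr2*, and the intervals overlap with at least 2 UMIs of *Cr2*.

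Plasma cells hold little of the B cell receptors. In the plasma gate *Fcer2a* was at 10.4 and 3.72 CPM (0.358), *Fcmr* at 79.8 and 47.2 CPM (0.591) and *Fcrl5* at 10.2 and 6.1 CPM (0.597), and these 3 pairs were past the fold where 8.82% of 11675 genes were. In single-gate plasma barcodes *Fcer2a* had 5 and 3 UMIs and *Fcrl5* 7 and 6 UMIs, and *Fcmr* was at 9.43 and 9.20 CPM (0.975, 0.725 to 1.31). In PEP-WT 60.2% and in PEP-619WW 43.9% of plasma barcodes also met the B gate, and in barcodes that met the plasma gate alone *Fcer2a* and *Fcrl5* had too few UMIs to compare. Among single-gate plasma cells *Fcmr* was at 34.8 and 54.0 CPM where *Ighm*, the IgM heavy chain, led (1.55, 1.02 to 2.37) and at 4.30 and 3.82 CPM where *Ighg2c* led. The receptor for IgM was therefore higher in barcodes led by the IgM chain, in both genotypes.

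Run 2 allowed a comparison in monocytes, C1q macrophages and neutrophils. Its pattern was not that of run 1. In monocytes *Fcgr1* was at 248 and 254 CPM (1.02), *Fcgr3* at 439 and 403 CPM (0.919), *Fcgr4* at 83.6 and 83.6 CPM (1.00) and *Fcgr2b* at 620.2 and 609 CPM (0.981). In C1q macrophages *Fcgr1* was higher in PEP-619WW, at 178 and 288 CPM (1.62, 1.56 to 1.67), as was *Fcgr2b*, at 438 and 691 CPM (1.58, 1.54 to 1.62), while *Fcgr3* (1.03) and *Fcgr4* (1.11) were not past the fold. In this gate the monocyte markers summed to 1374 and 4243 CPM and the C1q macrophage markers to 5231 and 3423 CPM (1338 and 4185, and 5281 and 3545 CPM, in single-gate barcodes). Their part in the result was not tested. *Fcrl5* was lower there, from 71 and 3 UMIs. Neutrophils held 113 and 152 CPM of *Fcgr1* (1.34, 1.15 to 1.57), which was 35.8 and 44.7 CPM (1.25, 0.798 to 2.01) in single-gate barcodes. They held 102 and 146 CPM of *Fcgr4* (1.44, 1.23 to 1.69), the latter at 72.8 and 127 CPM (1.75, 1.30 to 2.39) in single-gate barcodes. In the neutrophil gate the C1q macrophage markers summed to 3021 and 1127 CPM, the monocyte markers to 1795 and 3009 CPM and the neutrophil markers to 2117 and 1766 CPM. The part of these markers in the neutrophil values was not tested. The activating to inhibitory ratio was 1.24 and 1.22 in monocytes (0.979-fold, 0.924 to 1.04), 1.66 and 1.24 in C1q macrophages (0.750-fold, 0.728 to 0.773) and 2.29 in neutrophils of both, where single-gate barcodes gave 5.01 and 5.74. Over whole gates *Fcgr1* thus had no common direction over the runs. When run 2 monocytes were parted by *Ly6c2*, as given below, *Fcgr1* was lower in PEP-619WW in both sets. By the gates as defined, *Fcgr2b* was past the fold in C1q macrophages of run 2, in no other class of run 2, and in no class compared in run 1. The difference between runs was not tested. Background shares were 31.0% of 10471 genes in monocytes, 31.9% of 11847 in C1q macrophages and 38.1% of 7768 in neutrophils of run 2. The median log2 ratio over all genes was 0.25, 0.11 and 0.23 in these classes, so a member at 1.00 lay below the median gene.

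The barcodes of run 2 differed between genotypes in other ways that stand beside these values. Of C1q macrophages 44.7% held *Folr2*, a gene of resident macrophages, in PEP-WT and 23.1% in PEP-619WW, and *Vcam1* was found in 40.4% and 5.79%. *Fcgr1* was higher in PEP-619WW with *Folr2* (168 and 349 CPM, 2.08, 1.97 to 2.21) and without it (193 and 266 CPM, 1.38, 1.32 to 1.44). *Fcgr2b* was also higher in both sets (1.63 and 1.55). *Fcgr4* was higher with *Folr2* (96.0 and 163 CPM, 1.70) and lower without it (149 and 119.6 CPM, 0.804), so its ratio of 1.11 over the class joined opposite directions. The 6 B markers, which include *Cd74*, summed to 1840 and 7060 CPM in this class. *Ly6c2*, the gene of classical monocytes, was found in 11.8% and 44.9% of the monocyte barcodes, and among those with it *Fcgr1* was at 488 and 329 CPM (0.674, 0.592 to 0.771) and among those without it at 215 and 194 CPM (0.902, 0.831 to 0.981). Within both sets *Fcgr1* was thus lower in PEP-619WW, while the class as a whole was at 1.02. In the 503 B barcodes of PEP-619WW *Fcer2a* was at 224 CPM, *Fcmr* at 402 CPM and *Fcgr2b* at 267 CPM, with no PEP-WT value to set against them. Of the *Fcgr2b* UMIs 78.1% lay in barcodes of several gates, and single-gate B barcodes gave 329, 587 and 104 CPM of these genes. The 3 B cell members had no UMI in PEP-WT monocytes and 46 (*Fcer2a*), 86 (*Fcmr*) and 3 (*Fcrl5*) in PEP-619WW monocytes. *Fcmr* was thus at least 6.31-fold higher there, taking 3 counts as the floor of the PEP-WT library, but single-gate monocytes held 18 of these UMIs, a bound of 1.25-fold.

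Over all members and classes of run 1, 11 of 35 pairs with at least 50 UMIs were past 1.5-fold (31.4%), where 10.8% of all gene and class pairs were. In PEP-619WW 4 were higher and 7 lower, and the shares over all pairs were 4.59% and 6.16%. Among the lower pairs was *Fcmr* in monocytes, at 31.4 and 16.4 CPM (0.520), with 16 and 6 UMIs left in single-gate barcodes. In single-gate barcodes 8 of 29 pairs were past the fold, where 9.6% to 24.3% of all genes were in the single classes. In run 2 it was 4 of 17 (23.5%), with 3 higher and 1 lower, beside 33.2% of all pairs (23.3% higher and 9.89% lower). The members were past the fold more often than all pairs in run 1 and less often in run 2, as a description and without a test. The median log2 ratio of the members was -0.06 in run 1 and 0.03 in run 2. In NK cells 1 member could be compared and was not past the fold, where 21.6% of 1605 genes were.

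Other genes of the pathway were taken from 5 lists. Of 14 kinases and adaptors, among them *Lyn*, *Syk*, *Btk* and *Ptpn22* itself, none was past the fold in B cells, monocytes, C1q macrophages or neutrophils of run 1, where 9.47%, 11.6%, 9.50% and 13.4% of all genes compared were. In plasma and NK barcodes some were past it, among them *Gab2*, an adaptor, in plasma cells (1.82 and 3.14 CPM, 1.73) and *Lat2*, also an adaptor, in NK cells (215 and 129 CPM, 0.601). In these classes 8.82% and 21.6% of all genes compared were past the fold. *Syk*, the kinase that the gamma chain recruits, was at 121 and 122 CPM in monocytes. Of 8 inhibitors *Ptpn6*, which encodes the phosphatase SHP-1, was lower in B cells (228 and 148 CPM, 0.649) and plasma cells (117 and 74.0 CPM, 0.631), where the other 7 were within the fold, *Inpp5d*, which encodes SHIP-1, at 78.0 and 87.3 CPM in B cells. In NK cells *Ptpn6* was lower (134 and 86.1 CPM, 0.643) and *Cbl* higher (97.6 and 163 CPM, 1.67). In this gate B markers summed to 1846 and 1129 CPM, plasma markers to 837 and 2234 CPM, erythroid markers to 9834 and 454 CPM and neutrophil markers to 75.3 and 3588 CPM. NK markers summed to 13784 and 14098 CPM. The part of the other markers in these values and in that of *Lat2* was not tested. In run 2, where the median gene was itself higher, 9 of 14 kinases and adaptors were higher in monocytes, 5 higher and 1 lower in C1q macrophages and 8 higher and 1 lower in neutrophils, beside the 31.0%, 31.9% and 38.1% of all genes past the fold there. The heavy chains, whose Fc parts are the ligands, were higher in PEP-619WW B cells of run 1 for 5 of 8 genes and lower for 1: *Ighg2b* was at 1232 and 3783 CPM, *Ighg2c* at 6549 and 12054 CPM and *Ighe*, the IgE chain that CD23 binds, at 7.0 and 0.836 CPM (0.119, 0.0697 to 0.193). In the same gate the plasma markers summed to 2338 and 3828 CPM, and 20.5% and 26.4% of B barcodes also met the plasma gate. Their part in the result was not tested. Of all genes compared in the B gate 9.47% were past the fold. Heavy chains were also higher in other gates of run 1, for 4 of 7 compared in monocytes, 3 of 7 in C1q macrophages and 4 of 7 in neutrophils. In each of these 1 was lower, beside 11.6%, 9.50% and 13.4% of all genes past the fold. In the list of other receptors, *Trem2* was higher in C1q macrophages (15.5 and 41.5 CPM, 2.68) and *Clec4n*, a partner of the gamma chain, lower (77.7 and 47.1 CPM, 0.607). Of 12 other Fc-binding or Fc receptor-like genes 6 could be compared in C1q macrophages of run 1 and none was past the fold, with *Tyrobp*, an adaptor like the gamma chain, at 1097 and 1126 CPM. In this list *Cd247*, the zeta chain of T and NK cells, was lower in run 1 monocytes (18.8 and 11.1 CPM, 0.590) and neutrophils (27.2 and 13 CPM, 0.477). NK markers summed to 178 and 95.9 CPM in that monocyte gate and to 261 and 124 CPM in that neutrophil gate, and T markers to 340.5 and 219 CPM and to 469 and 271 CPM, and their part was not tested. In run 2 C1q macrophages 4 of 7 compared genes of this list were higher and 1, *Fcgrt*, lower (106 and 65.6 CPM, 0.617), beside 31.9% of all genes. Of the same list 4 of 7 were higher in run 2 monocytes, beside 31.0%, and in neutrophils 1 of 3 was higher and 1 lower, beside 38.1%. Of the 8 inhibitors 4 were higher in each of these classes of run 2. The genes named so far from these lists were chosen after their values were seen. By the rule, *Ighd* in C1q macrophages was the only listed gene past the fold in the same direction in both runs within a class, at 33.1 and 65.5 CPM in run 1 and 0.103 and 4.79 CPM in run 2, from 6 and 76 UMIs. It is a B cell gene. The B markers of this gate, which include *Cd74*, summed to 5415 and 4671 CPM in run 1 and to 1840 and 7060 CPM in run 2. In run 2 *Cd79a* had 4 and 177 UMIs there. Their part in the result was not tested.

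The members were also compared by their pattern over the 12 class totals of run 1 (6 classes of 2 genotypes). *Fcgr3* and *Fcgr4* were alike (Pearson r = 0.95 of log2 levels), as were *Fcgr1* and *Fcgr4* (0.86), *Fcgr3* and *Fcer1g* (0.88), and *Fcmr* with *Fcrl5* (0.86) and *Fcer2a* (0.85). *Fcgr2b* had r of 0.75 with *Fcgr1* and of -0.08 with *Fcer1g*. In NK cells, which give 2 of the 12 points, *Fcgr2b* had 5 and 4 UMIs and *Fcgr1* 3 and 1, so these values lean on counts near the floor. Of 10058 genes the patterns most like *Fcgr1* were those of *Scamp2*, *Clec4a1* and *Ywhag*, most like *Fcgr2b* those of *Kifap3*, *Ctsh* and *Slc27a1*, most like *Fcgr3* those of *Il6ra*, *Lilrb4a* and *Hnrnpll*, and most like *Fcgr4* those of *Cd300a*, *Lair1* and *Ctsl*. *Fcer1g* was nearest to *Fyb*, *Agtrap* and *Hpcal1*. Of the B cell members *Fcmr* was nearest to *Ebf1*, *Blk* and *Bank1*, *Fcrl5* to *Spib*, *Ly6d* and *Mef2c*, and *Fcer2a* to *Ap1s3*, *Trim59* and *Grap*, with r from 0.96 to 0.99 over all 24. The 12 points share libraries and, through the overlap of the gates, barcodes, and no test was made.

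Single barcodes held several receptors at once. In run 1 monocytes 21.7% (PEP-WT) and 18.7% (PEP-619WW) of barcodes held UMIs of all 3 activating receptors and a further 36.8% and 32.1% of 2 of them, while 34.9% and 26.5% held an activating receptor together with *Fcgr2b*. In B cells 22% and 26.8% held *Fcgr2b* alone and 3.36% and 5.57% an activating receptor alone, and after thinning 7.35% and 7.27% and 1.64% and 2.63%. In thinned single-gate B barcodes 0.630% and 0.936% held an activating receptor alone. Thinned to 1000 UMIs, 4.96% and 4.32% of monocytes held both kinds, and 7.57% and 9.80% of single-gate monocytes, so the direction between genotypes turned with the gate. Monocytes of either genotype thus carried activating and inhibitory receptor RNA in the same barcodes, doublets included, since no barcodes were removed as doublets.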

How the data were processed

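The deposited files are gene by barcode tables of whole-number UMI counts, which the authors made with Cell Ranger (6.0.0 in the submitters' processing notes) on the mm10 reference from 10x 3′ libraries. They were used as deposited, with no filter on cells, no doublet caller and every doublet kept. No column of another sample was present (0). Symbols were matched for 32158 of 32285 gene identifiers. With 1 pooled library per genotype and run no test was made. UMIs were summed per gate and divided by the gate total (CPM), with exact Poisson intervals for levels, Clopper-Pearson intervals for shares and exact conditional intervals for ratios, all at 95%. A pair was compared with at least 50 UMIs over both genotypes and at least 25 barcodes in each, and was past the fold at 1.5-fold. Where a genotype had no UMI, 3 counts were taken as the floor. The recovery of known changes was tested on simulated counts for run 1 monocytes (9817 genes, 200 changed): the sign was recovered for 99.5% and the interval covered the simulated ratio for 95.5%. Named genes were all members, listed pathway genes past 1.5-fold the same way in both runs, and for each member the 3 genes of highest correlation of log2(CPM + 1). Other genes named in the text were chosen after their values were seen. The members and lists were chosen with earlier results of these data known. Alternatives were other scalings, thinning to 1000 UMIs, doubled gate thresholds, single-gate barcodes, a filter of 500 genes and 10% mitochondrial UMIs, leaving out the deepest 5% of barcodes, and other thresholds. Promoter windows were taken from RefSeq (GRCm38.p6) and gene positions from GENCODE vM21. Computation used scipy 1.17.1 and numpy 2.4.6 for intervals, pandas 2.3.3 for tables and matplotlib 3.10.9 for figures, in Python 3.11.15.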

Additional observations from a re-analysis of the deposited data

Results flagged for a closer look

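*Fcmr* in the monocyte gate was singled out because its direction differed between the runs. In run 1 it was lower in PEP-619WW, by a log2 ratio of -0.94 (31.4 and 16.4 CPM, 247 and 103 UMIs). In run 2 it was higher, by a log2 ratio of at least 2.66, with 0 UMIs in PEP-WT and 86 in PEP-619WW. The difference between the runs was not tested. In single-gate monocytes run 1 had 16 and 6 UMIs and run 2 had 0 and 18, a bound of 1.25-fold that is not past the fold. The B markers of the monocyte gate in run 2, which include *Cd74*, summed to 3677 and 7172 CPM. Their part in the result was not tested.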

How the results depend on the processing

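No paired analysis was possible because each genotype has 1 pooled library per run and no test was made. The count of member pairs past the fold was 11 of 35 in run 1. It became 20 of 47 with no minimum of UMIs and 2 of 35 at 2-fold, with 8 to 12 under the other settings, where 29 to 35 pairs were compared. In run 2 it was 4 of 17 and became 2 of 17 at 2-fold, with 3 to 5 of 15 to 17 under the others. The shares of all gene and class pairs past the fold, 10.8% and 33.2%, hold for the main setting only. For the activating to inhibitory ratio the log2 change in run 1 C1q macrophages was 0.65 after thinning. In run 1 neutrophils (-0.24) it was -0.54 with barcodes weighted equally, -0.63 after thinning and -0.67 in single-gate barcodes. In run 2 it was 0.25 in monocytes after thinning and 0.20 in single-gate neutrophils, and in C1q macrophages (-0.41) it was -0.33 with barcodes weighted equally, -0.29 after thinning and -0.37 without the deepest 5% of barcodes. *Fcmr* in run 2 monocytes had a lower bound of -0.12 after thinning, with PEP-WT at the floor, which gives no direction. The causes were not tested. Of 15 ratios past the fold, 9 remained past it in single-gate barcodes (1 of them, *Fcer2a* in plasma cells, from 5 and 3 UMIs and so under the minimum) and 9 after thinning, and 11 to 15 under the other 6 settings that changed the values. With ratios scaled by the median gene of each class 13 remained. Those lost were *Fcgr1* in run 1 neutrophils and *Fcgr2b* in run 2 C1q macrophages. One pool per genotype gives no error between animals, so a ratio past the fold describes these libraries.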

Other observations

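*Fcrl5* had 71 UMIs in 41 of 5839 C1q macrophages of PEP-WT in run 2, where B cells were nearly absent, and 3 UMIs in 3 of 1968 in PEP-619WW, a ratio of 0.155 (0.0313 to 0.472). The 41 barcodes held no UMI of the B cell genes *Cd79a* and *Ms4a1*. They held 469.6 CPM of *Lipg* against 2.77 CPM in the other C1q macrophages and 203 CPM of *Cd300e* against 2.94 CPM, and less *Spp1* (95.2 against 1704 CPM). These genes were chosen after their values were seen. No barcode among them held more than 4 *Fcrl5* UMIs.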
